A study of Mus musculus with 4 samples.

Results

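The loci described here are those of the 3 Jun genes of the mouse, Jun, Junb and Jund, out of 21631 protein-coding genes (chromosome Y and mitochondrial genes left out). They were chosen by name. All summits of Fos signal inside each gene or within 50 kb of it were taken from a peak list of 178981 summits. The study mapped Fos in the colonic epithelium of wild-type mice by CUT&Tag, in which the transposase Tn5, brought to a protein by its antibody, cuts the DNA beside it and adds sequencing adapters. There were 2 libraries of healthy controls and 2 of colitis recovered mice, under a common batch label. In the colitis group the drinking water held 1 to 1.5% dextran sodium sulfate, a polymer that injures the colonic lining. It was given in 3 cycles, each of 7 days on and 10 days off, and tissue was taken 22 days past the last one. The mucosa was scraped from colons held in EDTA.

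The peak list has no values per library, so healthy and recovered colon were not compared and the error between replicates is unknown. The strength of a summit is its fold enrichment, a linear ratio of overlapping fragments to the background, as the authors' peak caller recorded it. The number of overlapping fragments (the pileup) was read from that ratio and is given with an exact 95% Poisson interval, which covers counting error only. No library without the antibody against Fos was used here, and how much of the signal came from Tn5 cutting open chromatin was not tested.

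Jun proteins are the partners of Fos in AP-1. Fos cannot pair with itself and binds DNA as a dimer with a Jun protein, through a basic region and a leucine zipper, at the AP-1 site TGAGTCA or the related CRE (cyclic AMP response element), TGACGTCA. The Jun gene encodes c-Jun, whose activation domain is phosphorylated by the JNK kinases and whose own promoter carries CRE-like sites bound by Jun and ATF2. Junb is an immediate-early gene whose product activates transcription more weakly than c-Jun and can oppose it. Jund encodes the member that is present in most resting cells.

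Marker genes of the labelled tissue carried signal near their ends. All 10 epithelial markers, among them Epcam, Cdh1, Krt8 and Cdx2, had a summit within 1 kb of either end of the gene, against 62.0% of all protein-coding genes. Of 25 markers of T cells, B and plasma cells, myeloid cells, endothelium, fibroblasts and smooth muscle, 6 had one, with none at Cd3e, Csf1r, Pecam1 or Acta2 and folds of 104.2 at Itgam and 29.8 at Cd68. What part other cells had in the signal at the Jun genes was not tested.

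All 3 Jun genes had Fos signal at the gene itself, and the loci differed in how it was laid out. Jund had the most summits in its window, 66 in 26 regions, Junb had 54 in 17 regions and Jun had 33 in 15 regions. The median protein-coding gene had 16 (interquartile range 5 to 29). A longer gene has a longer window, and the counts were not matched for gene length. Windows with at least as many summits as that of Jun made up 20.8% of all genes, against 5.23% for Junb and 2.33% for Jund. The weakest summits had folds of 3.13 at Jun, 2.89 at Junb and 2.65 at Jund, and the value at Jund is the lowest in the list. The median summit had 7.46, 10.7 and 6.73, against 6.73 over all summits. The top decile of all summits (fold of at least 38.0) included 5 at Jun, 13 at Junb and 12 at Jund, which is 15.2%, 24.1% and 18.2% of each locus. Regions of signal covered 16.6% of the bases of the Jun window, 25.4% of that of Junb and 34.0% of that of Jund.

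The order of the loci turned when summits nearer to another protein-coding gene were set aside. Jun is the only protein-coding gene in its window, while that of Junb holds 8 others and that of Jund 5. Noncoding genes were left out when the nearest gene was found, and 22 of the 33 summits of Jun lay inside one. At Jun, 32 of 33 summits lay nearer to it than to any other protein-coding gene, and the remaining summit was nearer to Mysm1. At Junb this held for 15 of 54 (27.8%) and at Jund for 14 of 66 (21.2%). Over all protein-coding genes the median of this count was 3 and the upper quartile 9, so that Jun exceeded 95.9% of genes, Junb 85.0% and Jund 83.6%. This count depends on how far off the next gene lies, and these ranks were not matched for gene density. They therefore do not separate Fos signal from gene spacing. Among genes with a like number of protein-coding genes in the window, the count of all summits placed Jun above 87.6% (6050 genes, with 1 to 2 per window), Junb above 88.3% (1467 genes, 8 to 10) and Jund above 97.8% (5527 genes, 5 to 7). These ranks were not matched for gene length either. Which gene a distal site acts on was not measured.

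**Figure D1:**
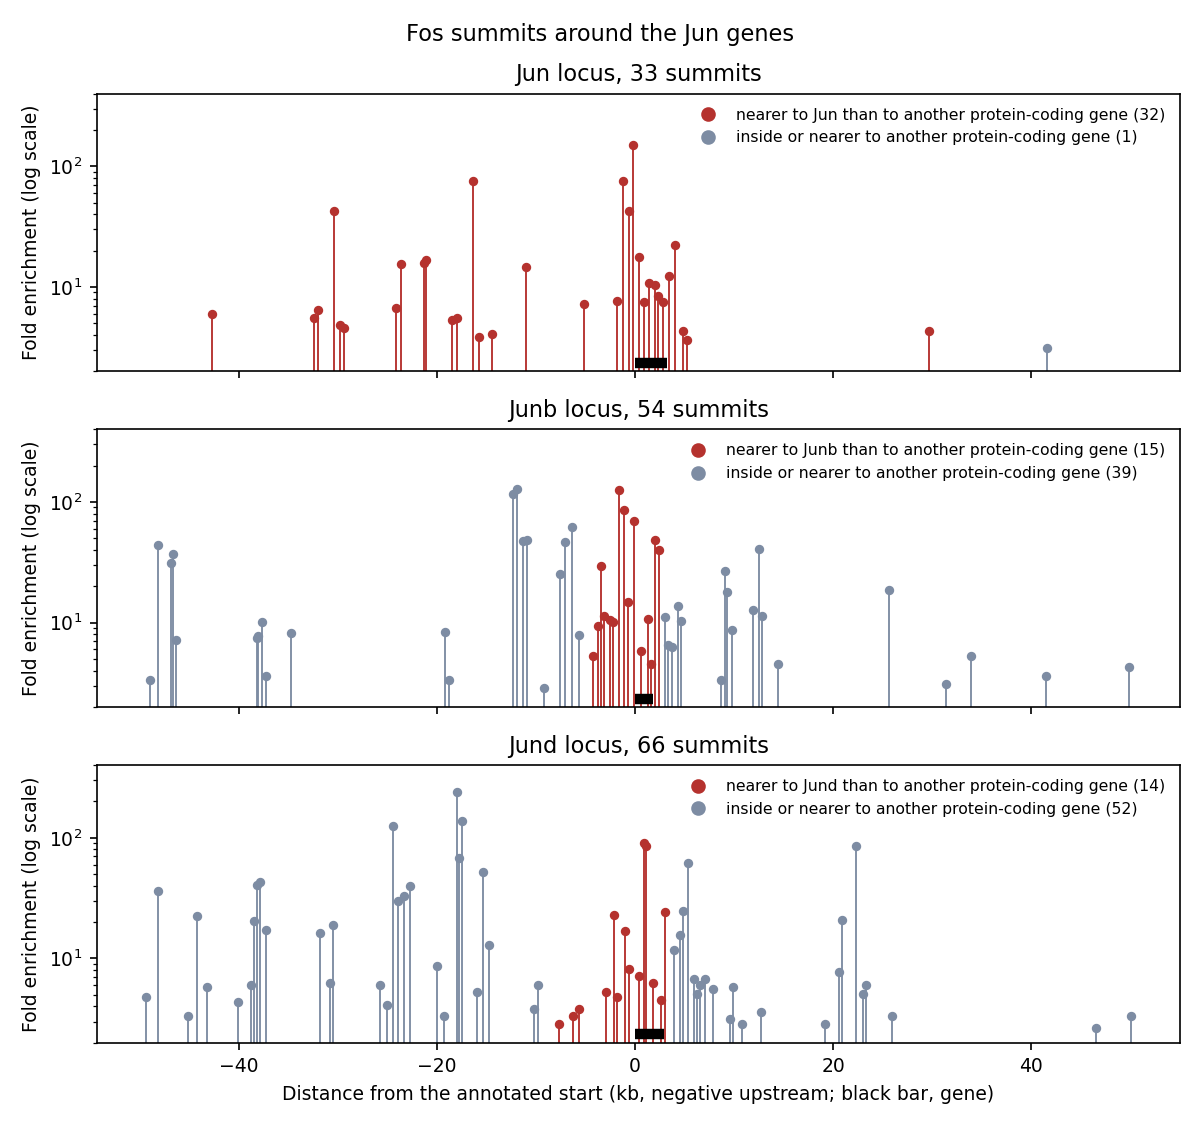
Each stem is a Fos summit, with the distance from the annotated start of the gene in kb on the x axis (negative upstream) and its fold enrichment on a log axis. Red summits lay nearer to the Jun gene than to another protein-coding gene (32 at Jun, 15 at Junb, 14 at Jund), and the strongest summit at Jund, with a fold of 239.3, is not among them.

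A summit within 1 kb of an end was present at 3 of 3 Jun genes, where 62.0% of all protein-coding genes had one. In each the highest of these was in the top decile of the list, a level reached by 23.6% of all genes, and stood higher at the start than at the end, as in 89.0% of the genes with a strand and a summit at an end. It was highest at Jun, with a fold of 149.9 and 622 fragments (574 to 673). Jund followed with a fold of 89.7 and 372 fragments (335 to 412), and Junb with a fold of 69.8 and 289 fragments (257 to 324). The counting intervals of the 3 did not overlap, and Jun had 2.15 times the fragments of Junb and 1.67 times those of Jund. Values above that of Jun were found at 2.00% of protein-coding genes, above that of Jund at 7.22% and above that of Junb at 11.2%. The order of Jund and Junb depended on the boundary of 1 kb. Junb stood above Jund with a boundary of 500 bp (69.8 against 24.3) and with 2 kb (126.8 against 89.7). At the gene end Junb was highest, with a fold of 48.6 and 201 fragments (174.2 to 231). The fold was 24.3 at Jund, from 100 fragments (81.4 to 122), and 22.1 at Jun, from 91 fragments (73.3 to 112), with overlapping intervals. The Jund summit counted at the start lay 859 bp inside the gene. Within 500 bp of either end, Jund had a fold of 7.22 at the start and 24.3 at the end. All these summits but the one at the end of Jun lay in regions wider than 3000 bp. Without such regions Jun kept a fold of 22.1 within 1 kb of an end and Junb and Jund had no summit there.

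The 3 genes differed in where the strong summits stood relative to the annotated start. RefSeq promoters, the 250 bases before an annotated start and the 50 bases from it on, held a summit at 32.5% of 32619 starts. Those of Jun and Junb held 1 each, 176 bp and 148 bp upstream of the start, and that of Jund held none. The fold in the Jun promoter was above that of 97.6% of the 10604 promoters with a summit and that in the Junb promoter above 83.9%. The 250 bases before each start are shown (RefSeq, GRCm38.p6, 5′ to 3′ on the strand of the gene) because they hold the summit at Jun and Junb and none at Jund. Capitals mark matches to the letters searched.
Jun, chr4:95052223-95052472, minus strand: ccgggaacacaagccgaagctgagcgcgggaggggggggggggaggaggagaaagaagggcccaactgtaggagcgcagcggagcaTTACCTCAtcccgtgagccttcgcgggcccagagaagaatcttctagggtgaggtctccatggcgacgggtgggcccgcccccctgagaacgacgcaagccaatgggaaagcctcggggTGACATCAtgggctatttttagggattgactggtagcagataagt
Junb, chr8:84978749-84978998, minus strand: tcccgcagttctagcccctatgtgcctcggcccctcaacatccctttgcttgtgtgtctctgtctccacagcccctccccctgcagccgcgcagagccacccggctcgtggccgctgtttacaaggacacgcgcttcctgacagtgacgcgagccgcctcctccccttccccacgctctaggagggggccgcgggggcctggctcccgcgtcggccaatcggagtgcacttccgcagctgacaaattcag
Jund, chr8:70697489-70697738, plus strand: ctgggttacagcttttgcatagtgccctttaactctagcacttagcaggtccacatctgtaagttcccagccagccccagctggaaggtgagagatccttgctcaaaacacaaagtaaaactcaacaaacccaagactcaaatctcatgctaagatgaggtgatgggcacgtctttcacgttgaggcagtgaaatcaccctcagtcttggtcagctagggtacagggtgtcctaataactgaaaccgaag

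Both strands of all 300 bases were searched for TGAGTCA, TGACGTCA, the CRE-like TGACATCA and TTACCTCA, and the CArG box of the serum response element. The Jun promoter held TGACATCA, with its first base 45 bases before the start, and TTACCTCA, 164 bases before it. Both are the sites long described in the Jun promoter as bound by Jun and ATF2. TTACCTCA was added to the search after the sequence had been seen. Of all promoters, 3.18% held TGACATCA and 0.895% TTACCTCA. Promoters with a summit held them less often (1.72% and 0.509%) than those without (3.89% and 1.08%). The summit in the Jun promoter lay 12 bp from TTACCTCA and 131 bp from TGACATCA. No promoter of the 3 held TGAGTCA, which 5.22% of all promoters hold, TGACGTCA (1.80%) or the CArG box (1.64%), and none of the letters was found at Junb or Jund. G and C made up 61.2% of the 250 bases at Jun and 66.4% at Junb, against 47.6% at Jund and medians of 52.4% over all promoters and 60.4% over those with a summit. RefSeq lists 1 start for Jund here, and the strong summits lay inside the gene downstream of it, where no sequence was used.

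Jun (chromosome 4, 95049036 to 95052222, minus strand) had its signal concentrated at the promoter and in a string of sites upstream. Nearly the whole gene, 93.2% of its bases, lay in called regions. The region over the promoter ran from 95049783 to 95054321, was 4539 bp wide and held 9 summits, and 0.437% of all regions were wider. Beside the promoter summit at 95052398 it held summits at 653 bp and 1210 bp upstream of the start, with folds of 42.8 and 75.5. Inside the gene folds fell to between 7.46 and 17.6.

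Farther upstream of Jun, the summit at 95068561, which is 16339 bp from the start, had a fold of 75.8 and 314 fragments (280.2 to 351). Another at 30421 bp, at position 95082643, reached a fold of 42.6, with 176 fragments (151 to 204). The sites between them were weaker, with folds of 16.6 at 21135 bp upstream of the gene, 15.9 beside it and 15.4 at 23629 bp. All 5 summits of Jun in the top decile of the list lay on the upstream side. Of the 27 summits on either flank, 21 (77.8%) lay upstream, a share above that of 77.5% of 14593 genes with a strand and a flanking summit, whose median was 50%. The difference was greater with distance, since beyond 10 kb there were 16 upstream summits and 2 downstream. Those 21 upstream summits all fell within Junos, a long noncoding RNA gene annotated from 95052317 to 95169036 that starts 95 bp from Jun on the other strand. The promoter summit lay 81 bp inside it, so it stood at the start of both genes, and which of them it belongs to cannot be told apart.

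**Figure D2:**
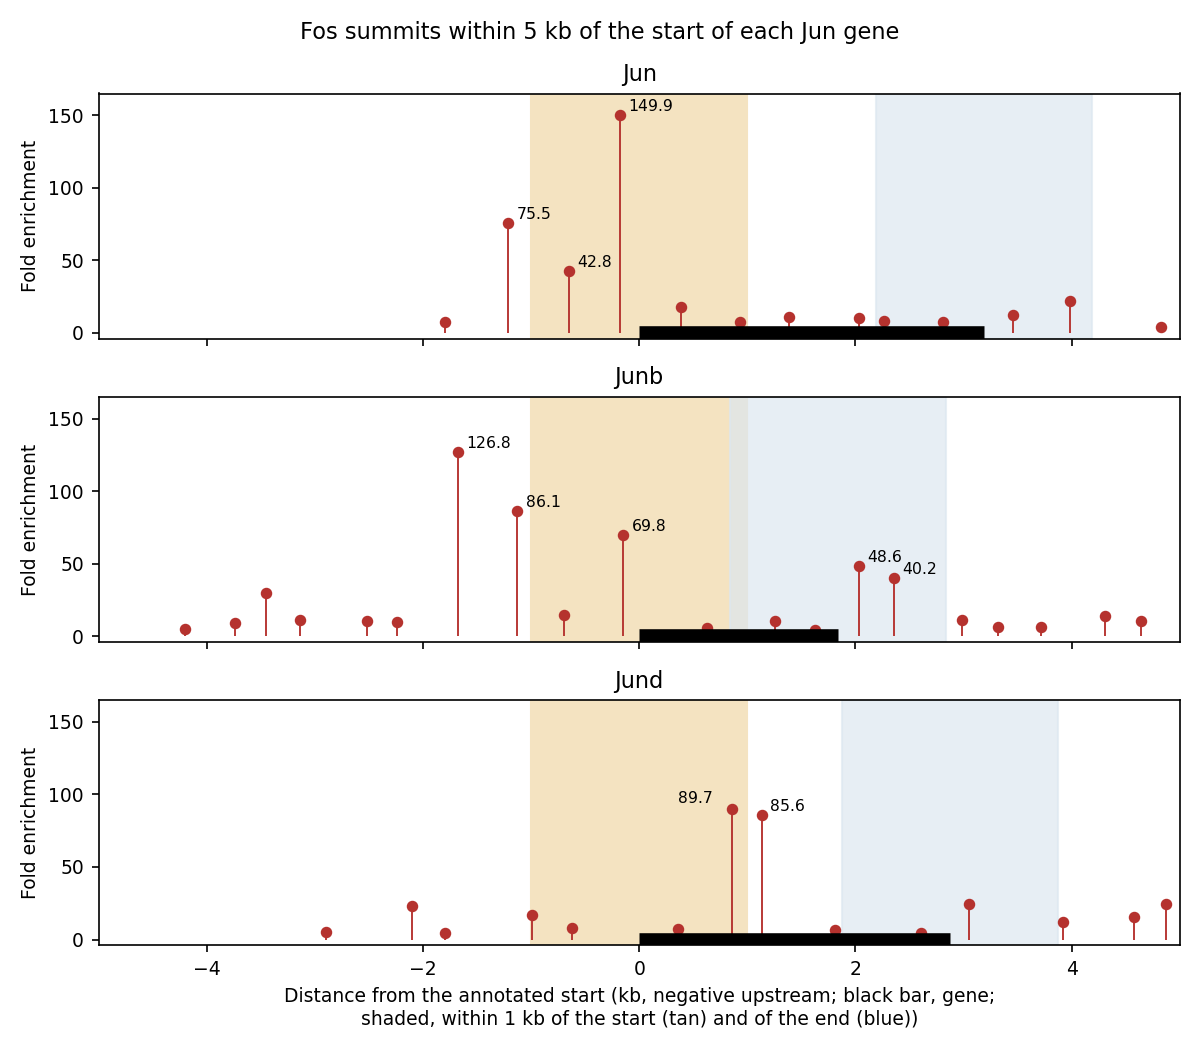
Fos summits within 5 kb of the annotated start of each Jun gene, with fold enrichment on a linear axis and the distance from the start in kb (negative upstream, black bar the gene, bands within 1 kb of the start and of the end). The highest summit stands just upstream of the start at Jun (149.9), 1673 bp upstream at Junb (126.8) and inside the gene at Jund (89.7).

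Junb (chromosome 8, 84976909 to 84978748, minus strand) lay wholly within 1 region, from 84973930 to 84983088. At 9159 bp it was among the widest of the list, with 20 wider ones among 108406, and its 20 summits were matched or exceeded in 10 regions, this one included. Neighbouring summits in it stood 435 bp apart in the median, against 415 bp (interquartile range 313 to 562) over all regions with more than 1 summit. The strongest summit of that region was not the one in the promoter. It stood at 84980421, 1673 bp upstream of the start, with a fold of 126.8 and 526 fragments (482 to 573), and a second at 1128 bp upstream had a fold of 86.1 and 357 fragments (321 to 396). A boundary of 2 kb in place of 1 kb therefore raised the highest boundary fold of Junb from 69.8 to 126.8. Past the end of the gene, 2 summits at 84976718 and 84976388 had folds of 48.6 and 40.2. Inside the gene folds ran only to 10.8.

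The strongest summit in the Junb window belonged to a neighbour by position. It stood at 84990657, 11909 bp upstream of Junb and inside Hook2, a gene for an adaptor that links cargo to microtubules, 34 bp from an annotated start of that gene. Its fold was 129.2 and its pileup 536 fragments (492 to 583), an interval that overlaps that of the summit 1673 bp upstream of Junb. A second summit in the same region had a fold of 115.9. Between both genes, summits at 6342 and 7071 bp upstream of Junb had folds of 61.6 and 46.9 and were nearer to Hook2. Downstream, where the genes of peroxiredoxin 2 (Prdx2) and of ribonuclease H2 subunit A (Rnaseh2a) follow, the highest summits inside them had folds of 26.9 and 40.9. Of the 54 summits in the window, 25 lay inside another protein-coding gene. Best2 and Mast1, the latter a kinase gene, had no summit within 1 kb of either end. A weak summit, with a fold of 3.61, lay 77 bp from an annotated start inside Mast1.

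Jund (chromosome 8, 70697739 to 70700616, plus strand) had its strong signal inside the annotated gene, with a pair of summits at 70698598 and 70698875. These lay 859 and 1136 bp downstream of the annotated start and had folds of 89.7 and 85.6, with 372 (335 to 412) and 355 (319 to 394) fragments, so their counting intervals overlapped. Whether another transcript of Jund starts nearer to this pair was not tested. Summits on the upstream side of the annotated start within 3 kb had folds of at most 22.9. With a boundary of 500 bp the highest fold of Jund fell from 89.7 to 24.3, that of the summit 178 bp past the gene end. Called regions covered 91.5% of the gene, in 2 regions of 5069 and 5983 bp with 9 and 11 summits. The second ran on into Iqcn, which begins 705 bp past Jund, and there reached a fold of 61.8 at 2411 bp past the end of Jund.

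The 3 strongest summits of the Jund window stood around Lsm4, which encodes a subunit of the ring that binds U6 RNA in splicing. The first, at 70679706, had a fold of 239.3 and 994 fragments (933 to 1058), ranked 222 in the whole list, and lay 18033 bp upstream of Jund and 954 bp from Lsm4. The next, at 70680235 in the same region, reached a fold of 138.8, with 576 fragments (529.9 to 625). The third, at 70673329, lay inside Lsm4, 98 bp from one end, with a fold of 126.0. A fold of 100 or more was present in the window of all 3 Jun genes and of 26.8% of all protein-coding genes, but at Jund each of those summits was nearer to Lsm4. On the downstream side the highest fold was 84.9, at 19371 bp past the gene and inside Gm3336. Among the summits nearer to Jund than to another protein-coding gene and more than 5 kb away, the highest fold was 3.85, against 75.8 at Jun. Both of these summits lay inside a noncoding gene, Gm39191 at Jund and Junos at Jun. Junb had no such summit. The stretches compared are unlike. Jun is the only protein-coding gene in its window, while Iqcn lies 705 bp and Lsm4 18987 bp from Jund.

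**Figure D3:**
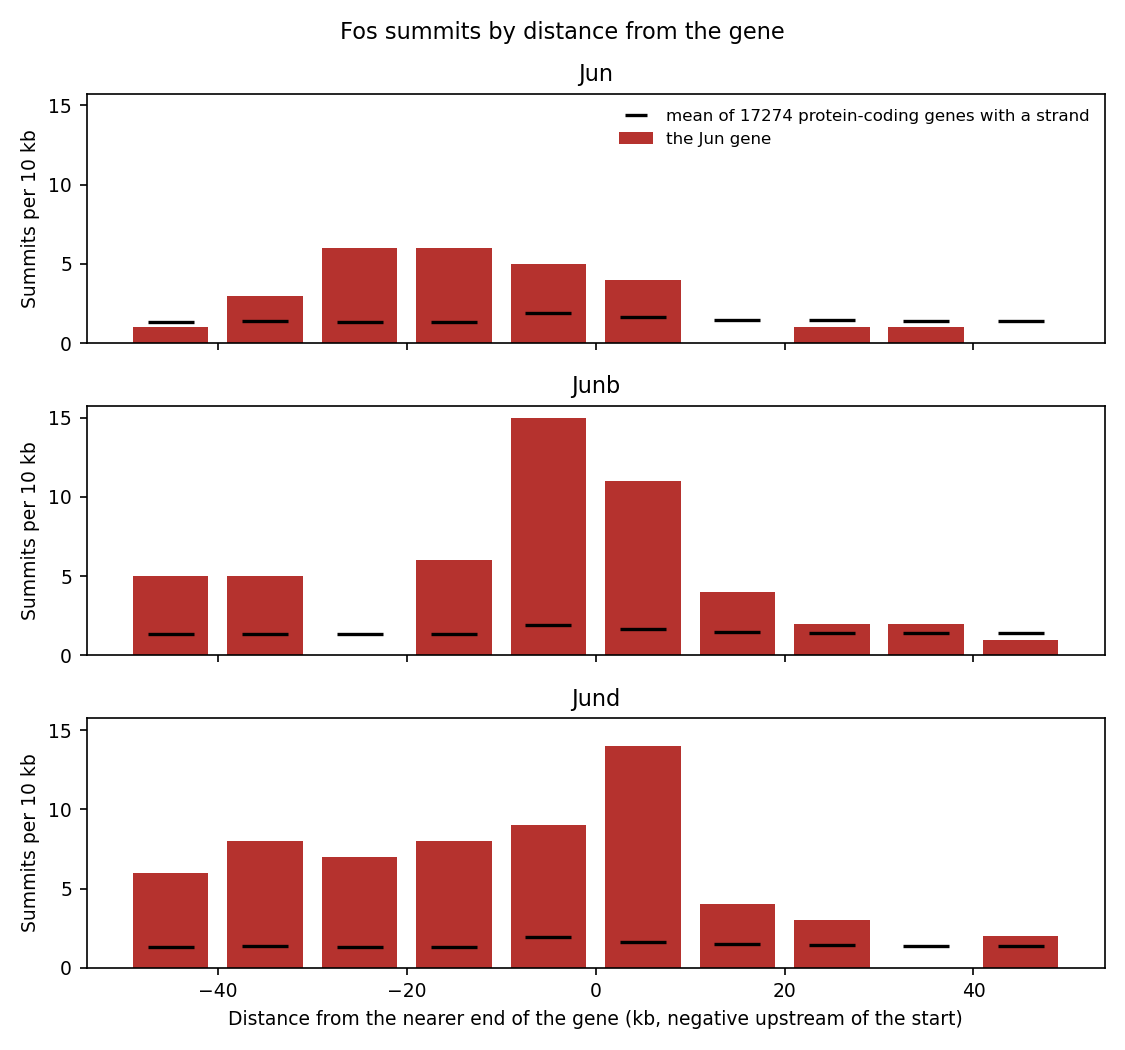
Bars give the number of Fos summits per 10 kb by distance in kb from the nearer end of each Jun gene (negative upstream of the start), and black lines the mean of 17274 protein-coding genes whose strand the promoter table gives. Junb peaks in the nearest 10 kb on both sides (15 and 11), Jun holds 6, 6 and 3 upstream from 10 to 40 kb, and Jund stays at 6 to 9 in every upstream bin.

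Signal was spread over unequal distances. In the nearest 10 kb upstream Jun had 5 summits, Junb 15 and Jund 9, against a mean of 1.93 per gene, and in the nearest 10 kb downstream they had 4, 11 and 14 against 1.66. From 20 to 30 kb upstream Jun had 6, Junb 0 and Jund 7, against 1.33. From 30 to 50 kb downstream Jun had 1, Junb 3 and Jund 2. The means over genes there were 1.39 from 30 to 40 kb and 1.39 from 40 to 50 kb. Within 5 kb of the gene lay 14 of 33 summits of Jun (42.4%), 20 of 54 of Junb (37.0%) and 19 of 66 of Jund (28.8%).

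The other genes of the AP-1 system were counted from 2 lists. Of 12 AP-1 partners, genes of the Fos, ATF, BATF and JDP2 proteins that pair with Jun proteins, 10 (83.3%) had a summit within 1 kb of an end, against 62.0% of all protein-coding genes, and their windows held a median of 29 summits (9 to 79). Fosb (79 summits, boundary fold 46.4) and Fos (56 summits, 61.8) had the most. Batf, Jdp2 and Atf2 had the fewest, 9 each, with boundary folds of 114.0 at Atf2, 4.81 at Jdp2 and no summit at Batf. Batf3 was the other gene without one and is named after its value was seen. The highest boundary fold in the list was 181.6, above the 149.9 of Jun.

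Of 12 Jun regulators, the JNK cascade and proteins that bind, modify or degrade Jun, 11 (91.7%) had a boundary summit, against 62.0% of all protein-coding genes. The 12 genes had a median of 15 summits in the window (9 to 37), below the 33 of Jun and near the 16 of all genes. Map3k1, a kinase at the top of the JNK cascade, had 37 and Men1, whose product menin binds JunD, had 36. The fewest were 9 at Mapk10, the JNK gene of neurons, which had no boundary summit, and 10 at Mapk8, the widely expressed JNK1, whose boundary fold was 125.8. Mapk8 and Fosb lay at opposite corners, with a high fold and few summits in the first and a lower fold and many summits in the second.

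**Figure D4:**
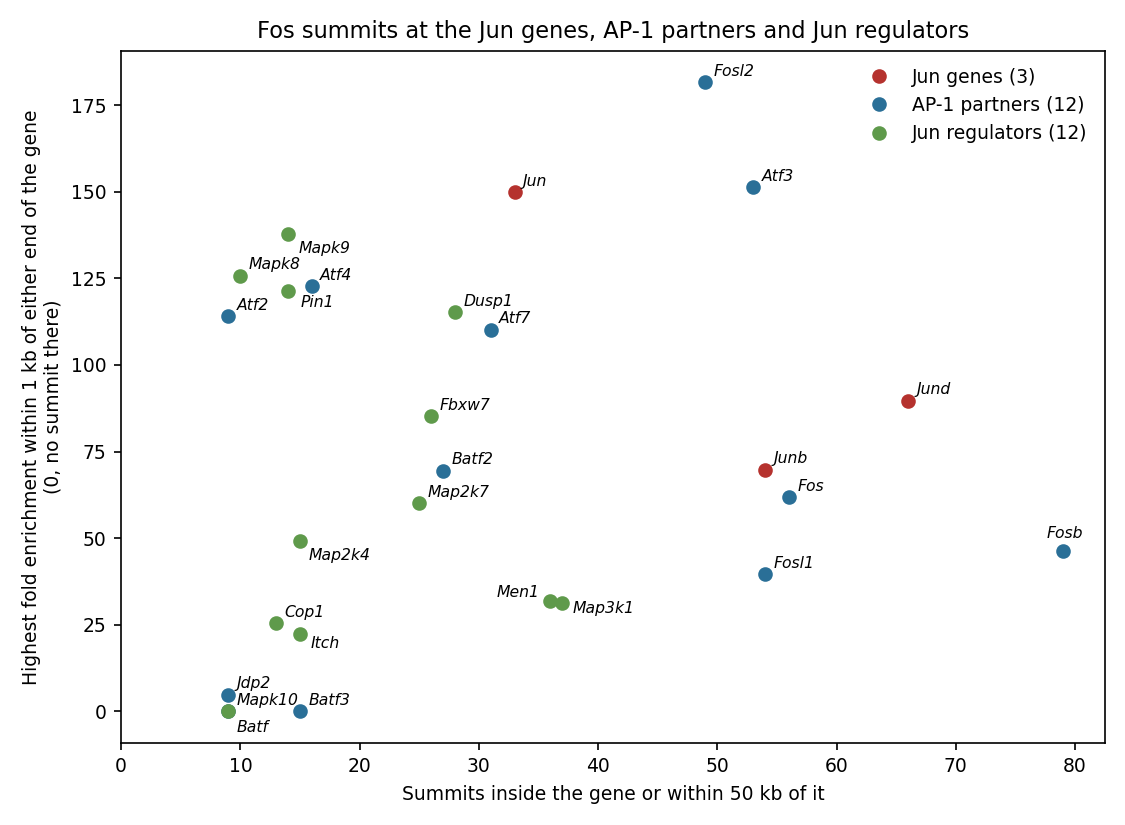
Each point is a gene, with the number of Fos summits inside it or within 50 kb on the x axis and the highest fold enrichment within 1 kb of either end on the y axis (0 where there is no summit). Jun stands high on the y axis (149.9) with 33 summits, and Jund (66) and Junb (54) lie to the right with lower folds.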

How the data were processed

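The submitters' processing notes name Bowtie2, MACS2 and the build mm10, without versions or settings. The sources used here do not say which libraries entered the deposited narrowPeak list. The authors' columns hold a fold enrichment (a linear ratio), −log10 p-value and −log10 q-value per summit, and a score equal to 10 times that −log10 q, cut to a whole number, in 100% of rows. Values were used to describe and rank summits within the list.

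A summit is the region start plus the offset, written 1-based. All folds were whole steps of (pileup + 1) within 0.05 steps, for a background of 3.16 fragments, and Poisson −log10 p recomputed from it matched the authors' p-value within 0.01 at 100% of the 167414 summits with a finite value. The depth of each library is unknown. Gene spans and promoters came from RefSeq tables of GRCm38.p6, the assembly of mm10. Strand was known for 17274 genes, those with a promoter entry. A percentile is the share of protein-coding genes with a lower value. No test across samples was possible, and no p-value is given. Counting was tested on simulated summits. Python 3.11.15, pandas 2.3.3 and scipy 1.17.1 were used.

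Named are the 3 members, the 5 strongest summits and the boundary summits of each, their neighbours, and the 2 highest and 2 lowest genes (with ties) of each list. The members and lists were chosen with earlier results of these data known. Wide or repeat-prone regions were not filtered.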

Additional observations from a re-analysis of the deposited data

How the results depend on the processing

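Of 58 alternative values for 14 results, 29 stayed within the bounds set and 29 moved. The bounds were 1.5 times for counts, the 95% counting interval for folds and a 95% binomial interval over 21631 genes for percentiles. The last is narrow, so that small shifts of a percentile were called moved. Jund had the most and Jun the fewest summits in the main count and in all 6 alternatives. With windows of 20 kb, counts fell to 21 at Jun and 40 at Jund, and with 100 kb they were 83 at Junb and 146 at Jund. With 1 summit per region they were 15, 17 and 26 at Jun, Junb and Jund, and without regions wider than 3000 bp 30 at Junb. The strongest fold of the Jun window became 75.8 without wide regions and that of the Jund window 317.02 with 100 kb. The highest boundary fold became 22.1 at Jun and 0 (no summit) at Junb and Jund without wide regions, 126.8 at Junb with boundaries of 2 kb and 24.3 at Jund with 500 bp. The percentile by summits, 79.2, 94.8 and 97.7 for Jun, Junb and Jund, became 82.9, 96.3 and 96.6 with 20 kb, 73.6, 94.2 and 99.7 with 100 kb, 84.5, 97.6 and 98.04 at −log10 q of at least 10, and 67.7, 74.3 and 92.9 with 1 summit per region. Among genes of like gene density it was 87.6 for Jun and 88.3 for Junb. Fewer summits are counted by construction with smaller windows, 1 summit per region or without wide regions, and the cause of the other shifts was not tested. Boundary counts of the 2 gene lists stayed within 1.5 times, at 9 and 11 with the stricter q and 12 and 11 with 2 kb. No paired analysis was possible because the list has no values per library. Without a second list, replicate error is unknown.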

Other observations

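The upstream flank of Jun holds further annotated starts of Junos, the noncoding RNA gene on the other strand. Summits stood 215 bp from the start at 23414 bp upstream of Jun, with a fold of 15.4, and 118 bp from that at 42591 bp, with a fold of 6.01. The starts at 13151 and 40068 bp had no summit within 1 kb, the nearest being 1256 and 2641 bp away. None of these 4 RefSeq promoters held a summit, and the strongest summits more than 10 kb upstream of Jun, at 16339 and 30421 bp, lay at none of these starts. At Jund, the noncoding genes Gm39191 and Gm34255 had nearest folds of 3.85 and 3.37 at their annotated starts.

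Likeness of layout was measured as the Pearson correlation of summits per bin over 21 bins (5 kb each on either side, and the gene), without regard to strand, against 13686 genes with at least 10 summits. The bins of a gene share their region and gene density, so the values are a description. The most alike were Cfap410 (r = 0.859), Zfp664 (0.855) and Mdm4 (0.836) for Jun, Nnat (0.834), Gadd45g (0.827) and Gm5681 (0.821) for Junb, and Pnpla2 (0.858), Hspa8 (0.756) and Trpc2 (0.751) for Jund. No Jun gene was among the 3 most alike of another. With 13686 genes compared, that absence says little about how alike the 3 loci are.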
